A study of Homo sapiens with 120 samples.

Results

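MicroRNAs bound to Argonaute (Ago) proteins were compared between HEK293T cells without Dicer and the line they were made from. HEK293T is an established line of human embryonic kidney origin; the source and growth labels name it so, while the sample titles write HEK293. The libraries were chosen by their labels alone: the second experiment, Ago pulldown, and the lines labelled Dicer knock-out and Parental. They number 12 of the 120 samples in the series, 6 per line, and the table gives each a value for 2652 miRNA names.

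The series sequenced small RNA from HEK293T lines with different gene knockouts after transfection of long double-stranded RNA (dsRNA), to ask which proteins take part in mammalian RNA interference. Both lines used here carry a knock-out of PKR, a kinase activated by dsRNA, and the Dicer line has the Dicer knock-out in addition. Each line was either mock transfected (Mock) or transfected with a dsRNA labelled dsGFPc or dsGFPd, using Lipofectamine, and each of these 6 groups has 2 libraries. RNA was recovered with a peptide that captures Ago proteins, and the pulldown was checked by the submitters with miR-16 and miR-21. The sources used here do not say whether the Dicer line is a single clone or whether replicate libraries came from separate cultures, so p-values measure only the spread between these libraries, which may be technical. An effect of Dicer loss and any other difference between the 2 lines cannot be told apart, and small RNA libraries do not measure Dicer mRNA, so the knock-out itself is not checked here.

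Most miRNAs are cut from a hairpin precursor: Drosha releases the hairpin in the nucleus and Dicer removes its loop in the cytoplasm. The resulting duplex has an arm from the 5′ side of the hairpin (5p) and an arm from the 3′ side (3p), and Ago usually keeps only the strand it will use as a guide. Bases 2 to 8 of the guide, the seed, choose its targets. A few miRNAs skip a step: mirtrons and the miR-320 family skip Drosha, and miR-451a skips Dicer because Ago2 cuts its hairpin.

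The miRNAs on which the results turn are given here with their RefSeq sequences (GRCh38.p14), 5′ to 3′, with the seed in capitals. The first set took a larger share of the pulldown in the Dicer knock-out.
miR-182-5p: uUUGGCAAugguagaacucacacu
miR-21-5p: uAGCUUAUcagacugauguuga
miR-423-5p: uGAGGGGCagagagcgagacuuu
miR-181a-5p: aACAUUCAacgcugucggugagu
miR-181b-5p: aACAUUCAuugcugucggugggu
miR-1260b: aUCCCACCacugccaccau
The second set took a smaller share, and it holds 2 pairs with a common seed.
miR-222-3p: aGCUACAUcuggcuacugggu
miR-221-3p: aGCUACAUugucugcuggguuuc
miR-148a-3p: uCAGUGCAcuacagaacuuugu
miR-148b-3p: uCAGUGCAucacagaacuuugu
The third set shares 1 seed, AUUGCAC, and had calls in both directions. The first 3 are 3p arms and fell. The last is a 5p arm and was called as a rise, from a parental mean under 20 RPM.
miR-92a-3p: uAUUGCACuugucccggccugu
miR-92b-3p: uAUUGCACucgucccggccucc
miR-25-3p: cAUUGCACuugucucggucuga
miR-32-5p: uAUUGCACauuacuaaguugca
The hairpin of miR-25 is shown because the balance of its arms shifted toward 5p in the knock-out. The share of miR-25-5p by itself did not pass the test. Its 5p arm and then its 3p arm are in capitals.
MIR25 hairpin: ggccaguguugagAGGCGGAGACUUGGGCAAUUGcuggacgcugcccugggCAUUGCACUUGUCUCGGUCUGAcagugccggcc

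MIR25 lies on the minus strand at chr7:100093560-100093643, within the span of MCM7. The mature miR-182-5p lies at chr7:129770447-129770470 on the minus strand, within the span of no other gene in the RefSeq table, and miR-21-5p at chr17:59841273-59841294 on the plus strand, within the span of VMP1. The mature miR-222-3p and miR-221-3p are neighbours on the minus strand of chromosome X, at chrX:45747036-45747056 and chrX:45746180-45746202, within the span of MIR222HG. The entry miR-1260b lies at chr11:96341447-96341465 on the plus strand, within the span of MAML2. In miR-181a-5p, miR-181b-5p and miR-92a-3p the same sequence comes from 2 loci, whose reads cannot be told apart.

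Libraries of the Dicer knock-out held far fewer miRNA reads. The parental pulldown libraries had 4637573 to 6804535 reads and the Dicer knock-out libraries 47006 to 593510, with no overlap (two-sided exact permutation test, p = 0.00216, the smallest that 6 against 6 libraries can give). Within the knock-out the Mock libraries were the shallowest, with 83321 and 47006 reads against 161963 to 593510 with dsRNA. Shares are given as RPM, reads per 1000000 recovered miRNA reads of a library. In the Mock libraries of the knock-out a single read was worth 12 and 21.3 RPM, so a miRNA below that level cannot be seen, and a count of 0 allows 36.0 and 63.8 RPM (3 reads, counting error only). The total number of sequenced reads is not in the table used here, so fewer cells in a pulldown and less miRNA per cell cannot be told apart, and the values below are shares of the miRNA reads of a library unless stated otherwise. Of 9 miRNAs known to be abundant in HEK293T, all 9 were measured, and together they took 41.5% to 48.6% of reads in the parental line and 37.6% to 72.7% in the knock-out. The joint share hides opposite changes: in the tests below 1 of the 9 rose and 4 fell, where 13.3% and 47.8% of all names did. The 1 that rose, miR-182-5p, had 60668 RPM on average in the parental line and 321291 in the knock-out.

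The 5p arms held more of the Ago-bound reads in the Dicer knock-out than in the parental line, in every library. In the parental line 5p-named miRNAs took 64.2% and 56.5% of reads with Mock, 64.0% and 57.6% with dsGFPc and 67.9% and 52.4% with dsGFPd. In the knock-out they took 75.4% and 74.1% with Mock, 96.0% and 96.8% with dsGFPc and 97.5% and 93.9% with dsGFPd. The groups did not overlap: the lowest knock-out library was above the highest parental one. The means were 60.4% ± 5.85 and 89.0% ± 11.1 (SD, n = 6 libraries each), a difference of 28.5 percentage points (exact permutation test, p = 0.00216, adjusted over 3 library values p = 0.00649). The difference was not carried by miR-182-5p, the most abundant name in the knock-out: without it the knock-out libraries still had 70.1% to 96.4% of reads on 5p arms.

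**Figure D1:**
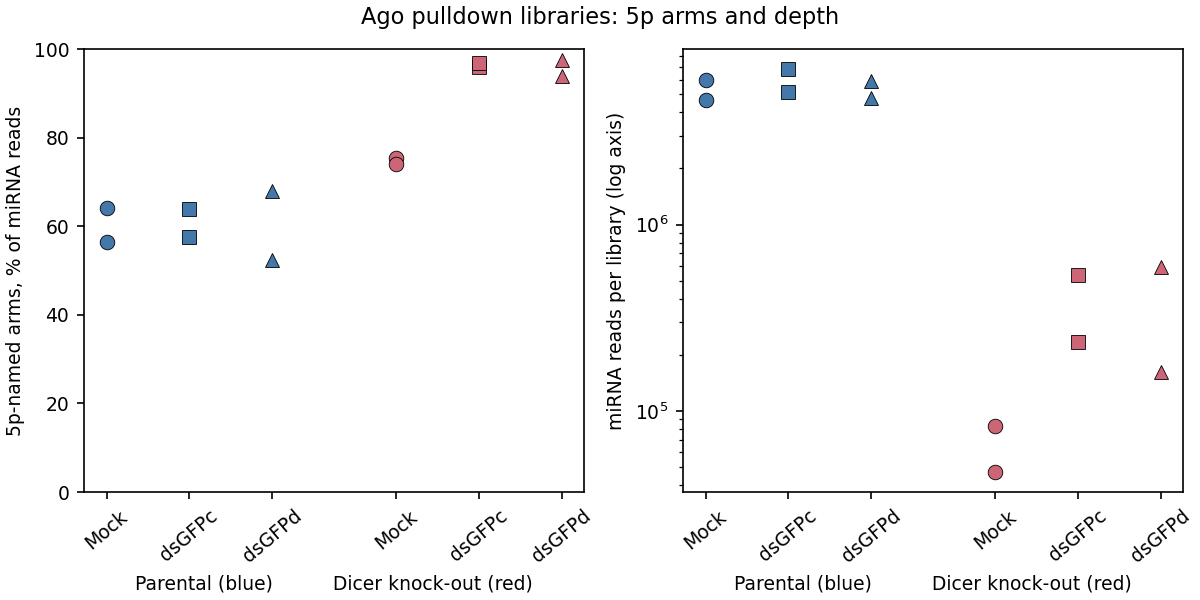
The left panel plots the percent of miRNA reads on 5p-named arms and the right panel the miRNA reads on a log axis, with 1 point per Ago pulldown library by line and transfection. Knock-out libraries lie at 74.1% to 97.5% and parental libraries at 52.4% to 67.9%, and the 2 Mock knock-out libraries are the lowest of the knock-out in both panels.

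In the knock-out the 5p share was 21.3 points higher with dsRNA than with Mock, whereas in the parental line it was 0.119 points higher. The difference between these, 21.2 points, had p = 0.0400 by an exact permutation of the Mock and dsRNA labels within each line. This test was chosen after the values were seen. It was run on 3 library values, of which this had the smallest p, and no adjustment over the 3 was made. Depth moved with it: the dsRNA libraries of the knock-out were the deeper ones, and the part of depth in this result was not tested. With the Mock libraries left out, the difference between lines was 35.6 points in the 4 against 4 libraries that remain (exact permutation test, p = 0.0286).

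The spread of reads over miRNAs was described by their effective number. The effective number of miRNAs (the exponential of the Shannon entropy of the shares, which counts equally abundant species) was 29.2 to 37.9 in the parental libraries and 37.2 and 36.5 in the Mock knock-out libraries. With dsRNA it was 6.89 to 12.6 in the knock-out, below every other library, and the 5 most abundant names took 77.4% to 85.0% of reads. The change with dsRNA was 23.2 lower in the knock-out than in the parental line, which did not pass (exact permutation of the Mock and dsRNA labels within each line, p = 0.0622). Over all 6 libraries per line the means were 34.3 ± 3.19 and 19.0 ± 13.99 (SD, n = 6), which did not pass the threshold (exact permutation test, p = 0.0519, adjusted p = 0.0779). Without the first Mock library of the knock-out the p was 0.0130 and without the second it was 0.0152. Names numbered 1000 or above, which were added late to the miRNA catalogue, took 1.81% ± 0.207 of reads in the parental line and 1.83% ± 1.07 in the knock-out (SD, n = 6, exact permutation test, p = 0.983). Without the most abundant miRNA of each line that difference was 0.985 percentage points and passed (exact permutation test, p = 0.0260).

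Across single miRNAs, 362 names reached a mean share of 20 RPM and were tested with limma on log2(share + 20), with line and transfection as terms. Of these 48 rose in the Dicer knock-out (13.3% of those tested) and 173 fell (47.8%), 61% in all, at a Benjamini-Hochberg adjusted p under 0.05. A name with a mean under 20 RPM in 1 line was tested only because it was higher in the other, and both counts hold such names. Shares sum to the same total, so a rise here is a rise relative to the other miRNAs of the library. The median of all 362 log2 differences was -1.07. With TMM factors, which centre the typical miRNA, the median was -0.42, with 69 names higher and 120 lower, and DESeq2 gave 114 higher and 117 lower. All 48 names that rose were also called higher by both, and 120 and 117 of the 173 that fell were called lower. If the libraries are instead scaled on entries that overlap other small RNAs, 310 names were lower and 6 higher, with a median of -4.33. Of the 48 names that rose, 19 kept their sign and 19 were called lower on this scale. The joint share of those entries was itself higher in the knock-out, at 0.106% to 2.12% of reads against 0.00414% to 0.0118% in the parental line. In the Mock knock-out libraries it came mostly from miR-1260b. Dividing by it lowers the other names, so values on this scale are relative to those entries and are not an independent check of the rises. The 6 knock-out libraries lay above all 6 parental libraries for 17 names (4.7%) and below all of them for 95 (26.2%).

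**Figure D2:**
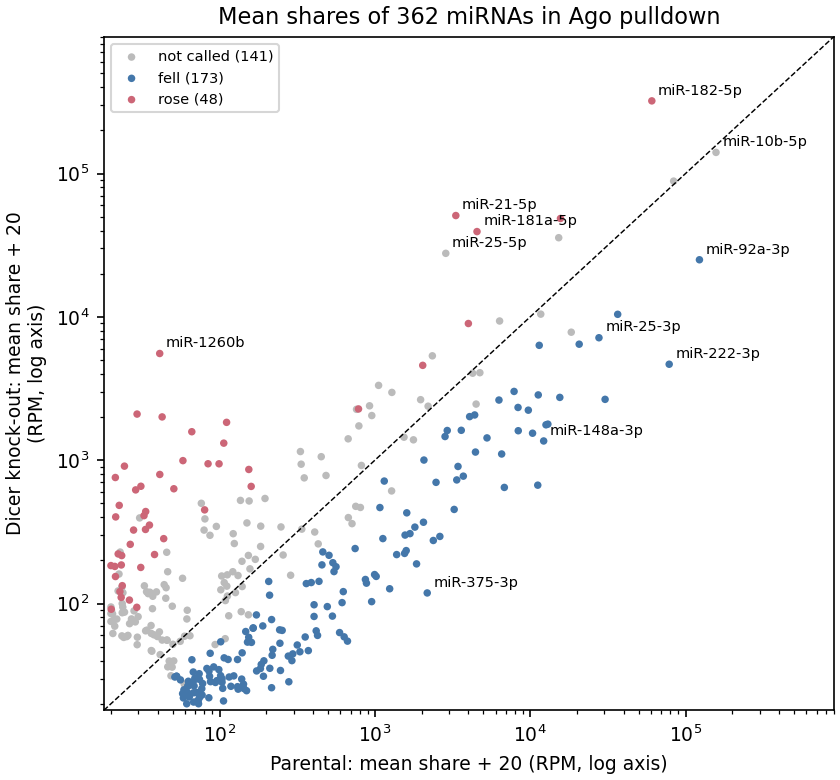
Each point is a miRNA, with its mean share plus 20 RPM in the 6 parental libraries on the x axis and in the 6 Dicer knock-out libraries on the y axis, both on log axes. Points above the dashed line of equal shares include miR-182-5p and miR-21-5p, and miR-222-3p lies far below it, and most of the 173 names that fell lie along the lower side.

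Of the 23 miRNAs listed as abundant, 5 rose and 12 fell, where 13.3% of all names rose and 47.8% fell. The largest by share of the 5 that rose was miR-182-5p, a member of the cluster with miR-183 and miR-96 that is known from sensory organs. In the parental line its share was 43876 to 70921 RPM with a median of 62765. In the knock-out it was 103899 and 132153 RPM with Mock and 294699 to 566738 with dsRNA and on average it took more reads than any other name. The log2 difference was 2.16 ± 0.34 (SE, limma adjusted p = 0.000254), which is -3.27 when the entries overlapping other small RNAs set the scale.

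The share of miR-21-5p, among the best known miRNAs of growing and tumour cells, was 1310 to 4194 RPM in the parental line, with a median of 3633. In the knock-out it was 17511 and 13743 with Mock, 98824 and 48404 with dsGFPc and 89286 and 37688 with dsGFPd. All 6 knock-out libraries lay above all 6 parental ones, and the log2 difference was 3.67 ± 0.50 (SE, limma adjusted p = 0.000129; -1.73 with the scaling on other small RNAs). Its partner arm miR-21-3p rose as well, from 91.05 to 1818 RPM on average (log2 difference 3.43; -1.54 with that scaling). The other control of the pulldown, miR-16-5p, had 4242 ± 1478 RPM in the parental line and 4027 ± 1818 in the knock-out (SD, n = 6) and did not pass the test, with a log2 difference of -0.11; with the deposited scaling it was 1.51 and with DESeq2 1.54, and both passed (adjusted p = 0.0190 and 0.00183).

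The miR-181 family, known for tuning T cell receptor signalling, moved in both directions although its members share a seed. The abundant miR-181a-5p had 1660 to 7469 RPM in the parental line and 16040 to 67645 in the knock-out, without overlap (log2 difference 3.18 ± 0.50 SE, limma adjusted p = 0.000249; -2.23 with the scaling on other small RNAs). The share of miR-181b-5p also rose, by a log2 difference of 1.07, but its Mock values of 4357 and 4212 lay inside the parental range of 2492 to 5460. The rare members fell: miR-181c-5p by 2.38 and miR-181d-5p by 2.62 on the log2 scale. Their knock-out libraries all lay below the parental ones.

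The share of miR-423-5p was 9254 to 25737 RPM in the parental line. In the knock-out it was 11114 and 20253 with Mock, inside that range, and 46144 to 92960 with dsRNA, above it. Its log2 difference was 1.42 ± 0.44 (SE, limma adjusted p = 0.0138; -4.00 with the scaling on other small RNAs). Its partner miR-423-3p fell by 1.35 on the log2 scale, a call that was lost without any single library of 8, the 4 dsRNA libraries of either line, and that turned to 0.27 with the deposited scaling or DESeq2.

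**Figure D3:**
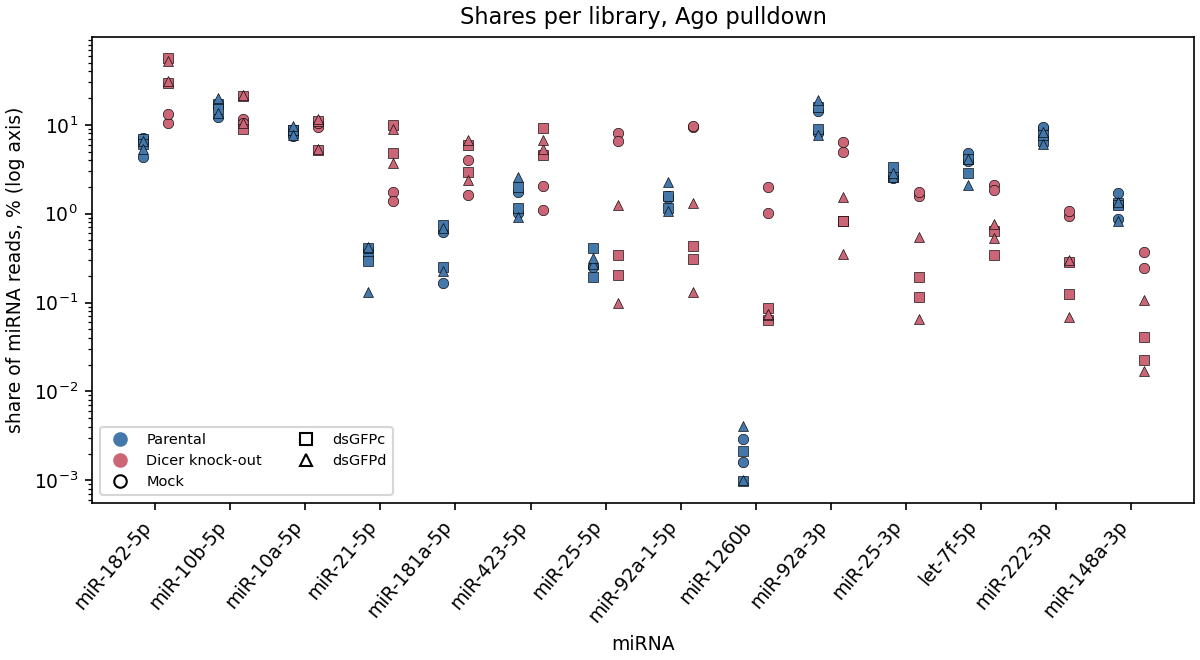
The share of 14 miRNAs in each of the 12 Ago pulldown libraries is plotted as percent of miRNA reads on a log axis, parental in blue and Dicer knock-out in red, with the marker shape giving the transfection. The red points of miR-21-5p and miR-1260b lie above all blue ones, those of miR-222-3p and miR-148a-3p below, and for miR-25-5p and miR-92a-1-5p only the Mock knock-out libraries are far above the rest.

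Of the 12 largest rises on the log2 scale, all but miR-21-5p had a mean share under 100 RPM in the parental line. The largest was miR-1260b, from the list of entries that overlap other small RNAs. Its parental share was 9.70 to 40.9 RPM, and in the knock-out it was 10094 and 20146 with Mock but 636 to 872 with dsRNA. The groups did not overlap, and the log2 difference was 5.66 ± 0.67 (SE, limma adjusted p = 8.01e-05). The other 11 of the 12 largest rises were miR-6891-5p, miR-10395-3p, miR-181b-3p, miR-19b-1-5p, miR-196b-3p, miR-3168, miR-21-5p, miR-122-5p, miR-21-3p, miR-671-5p and miR-450a-5p, with log2 differences of 4.69 down to 3.30, of which miR-181b-3p, miR-21-5p, miR-122-5p, miR-21-3p, miR-671-5p and miR-450a-5p turned lower with the scaling on other small RNAs. Some were nearly absent from the parental pulldown: miR-19b-1-5p went from 2.62 to 464 RPM and miR-196b-3p from 1.35 to 738, on average. These names and miR-6891-5p, miR-10395-3p, miR-3168 and miR-450a-5p had parental means under 20 RPM. They passed the filter through the knock-out alone, where they are high, so their calls are not independent of that filter. The share of miR-339-5p, which is outside the 12 largest rises and was chosen after its values were seen, was even across the transfections, at 63.8 to 111 RPM in the parental line and 733 to 1185 in the knock-out.

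Of the 15 listed entries that overlap other small RNAs, 6 were tested and 3 rose, where 13.3% of all names did. None passed the test lower, and the list median was 2.13 against -1.07 over all names. Parental means of miR-1246, miR-3651, miR-664b-3p and miR-664b-5p were under 20 RPM. These names passed the filter through the knock-out alone, so neither their calls nor the list median are independent of that filter. Besides miR-1260b, miR-664b-5p rose by a log2 difference of 3.22 (-0.17 when this list sets the scale) and miR-1246 by 2.75, from 1.19 to 162 RPM on average. Together the list took 0.00414% to 0.0118% of parental reads and 0.106% to 0.189% of knock-out reads with dsRNA, and 1.11% and 2.12% with Mock.

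Among the names that fell, miR-222-3p had the largest log2 difference on the log2(share + 20) scale; the ratio of its mean shares, 0.0593, was above those of miR-375-3p (0.0458), miR-421 (0.0537) and miR-221-3p (0.0582). It represses the cell cycle inhibitor p27 and was the fourth most abundant name in the parental pulldown, at 60231 to 93735 RPM with a median of 79693. In the knock-out it had 9373 and 10722 RPM with Mock and 692 to 3001 with dsRNA. No library overlapped, and the mean went from 78477 ± 13547 to 4654 ± 4296 (SD, n = 6), a log2 difference of -4.67 ± 0.48 (SE, limma adjusted p = 6.07e-05). Its neighbour miR-221-3p fell with it, from 7243 to 25176 RPM in the parental line to 155 to 1728 in the knock-out (log2 difference -4.29).

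The other large falls were spread over several families. The islet miRNA miR-375-3p had a log2 difference of -4.49, miR-99b-5p of -4.23, miR-769-5p of -3.98, miR-421 of -3.72, miR-1910-5p of -3.597, miR-1307-3p of -3.45 and miR-130b-3p of -3.36. The seed family of miR-148a-3p, miR-148b-3p and miR-152-3p fell as a whole. Its main member miR-148a-3p had 8273 to 17146 RPM in the parental line and 168 to 3723 in the knock-out, without overlap (log2 difference -3.95 ± 0.60 SE, limma adjusted p = 0.000241). The Mock knock-out libraries, at 2448 and 3723, were the highest of the knock-out.

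Of the 9 let-7 family members, which hold back growth genes such as the RAS genes and LIN28, 8 fell and none rose, with a median of -2.07, where 47.8% of all names fell and their median was -1.07. Together they took 6.53% to 13.02% of parental reads and 0.624% to 3.65% of knock-out reads. The most abundant, let-7f-5p, had 20915 to 48660 RPM in the parental line and 3431 to 21027 in the knock-out, where the Mock libraries at 21027 and 18657 met the lowest parental library (log2 difference -2.07 ± 0.37 SE, limma adjusted p = 0.000509). The ninth member, let-7d-5p, had a difference of -1.38 that did not pass. Calls of 2 members rest on few libraries: let-7b-5p missed the threshold without any of 9 single libraries and turned to 0.39 and 0.16 with the deposited scaling and DESeq2, and let-7i-5p missed it without any of 7. Without the second Mock library of the knock-out let-7d-5p passed, with -2.03, and without the first Mock library of the parental line with -1.78.

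The miR-17-92 cluster and its paralogs, which promote proliferation, are another listed group. Of 13 listed names 9 were tested and 6 fell, against 47.8% of all names, with a median of -2.87. The joint share of the 13 went from 11.6% to 22.5% in the parental line to 1.65% to 8.52% in the knock-out. The list leaves out partner arms such as miR-92a-1-5p and miR-25-5p, so this is not the share of whole clusters. Mean shares of these 2 arms were 15243 and 2842 RPM in the parental line and 35650 and 27736 in the knock-out, highest with Mock. Neither passed the line test, with log2 differences of -0.38 and 1.66. The leading member miR-92a-3p had 76447 to 189927 RPM in the parental line; in the knock-out it had 50011 and 64822 with Mock and 3491 to 15275 with dsRNA (log2 difference -2.94 ± 0.56 SE, limma adjusted p = 0.000756). The shares of miR-17-5p, miR-19a-3p, miR-19b-3p, miR-93-5p and miR-25-3p fell by 2.64 to 3.18 on the log2 scale. The exception in level was miR-20a-5p, whose knock-out libraries had 553 and 804 RPM with Mock and 4927 to 10126 with dsRNA against 699 to 4411 in the parental line. It did not pass the line test, with a log2 difference of 0.69 ± 0.71 (SE).

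For some of the most abundant miRNAs the ranges of the lines overlapped and limma on shares called no difference. The HOX cluster miRNA miR-10b-5p was the first name of the parental pulldown, at 122582 to 201319 RPM, and had 89653 to 214217 in the knock-out. Its log2 difference was -0.23 ± 0.29 (SE, limma adjusted p = 0.510). With the deposited scaling it was 1.39 (limma adjusted p = 0.0166) and with DESeq2 1.43 (adjusted p = 0.00237), and both passed. Its relative miR-10a-5p had 74790 to 98271 and 51942 to 116667 RPM, with a difference of 0.01 ± 0.29 (-5.42 with the scaling on other small RNAs). Both lay above the median of all names, by 0.83 and 1.08. Of the 23 listed as abundant, 5 rose and 12 fell, with a median of -1.35; over all names 13.3% rose and 47.8% fell, so these shares lie near the background. Beside miR-182-5p, miR-21-5p, miR-181a-5p and miR-423-5p the fifth that rose was miR-26b-5p, by 1.22 (-4.10 with the scaling on other small RNAs), a call that was lost without any of 5 single dsRNA libraries.

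The calls were also counted by arm; the difference between the arms in these counts was not tested. Of 178 tested 5p names 31 rose and 67 fell, with a median log2 difference of -0.39. Of 133 tested 3p names 10 rose and 76 fell, with a median of -1.44, and of 51 names without an arm 7 rose and 30 fell, with a median of -1.33. Of 32 seeds shared by at least 2 tested names, 2 had members called in both directions. These are the miR-181 family and the AUUGCAC family printed above. In the latter miR-32-5p went from 9.35 to 74.2 RPM on average (log2 difference 1.48, limma adjusted p = 0.00547). Its relatives miR-25-3p, miR-92a-3p and miR-92b-3p fell by 2.92, 2.94 and 3.91. With a parental mean under 20 RPM, miR-32-5p passed the filter through the knock-out alone, so its call is not independent of that filter. It had 1 to 40 reads in the knock-out libraries. RefSeq sequences were matched for 326 of the 362 names.

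Within a hairpin the ratio of arms does not depend on the scaling of a library. Of 91 hairpins with enough reads on both arms together, limma on the log2 ratio of 5p to 3p reads called 26 shifted toward 5p in the knock-out (28.6%) and 17 toward 3p (18.7%). The 17 depend on the pseudocount of 0.5 read where the minor arm has no read in the shallow libraries: with 0.1 read the counts were 21 and 7. Tested without a pseudocount, as the percent of 5p reads per library with an exact permutation test, 22 shifted toward 5p (24.2%) and 6 toward 3p (6.59%). Of these 14 moved by at least 10 percentage points toward 5p (15.4%) and 1 toward 3p (1.1%). This test was added after the values were seen. Low depth enters its small shifts as well, because a rare minor arm can go unread in the shallow libraries. The hairpin let-7e was called toward 5p at 99.97% in the parental line and 100% in the knock-out, while limma called it toward 3p. Likewise let-7a was called at 99.93% and 100%, and miR-140 toward 3p at 0.487% and 0%.

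The plainest case was the miR-25 hairpin printed above. In the parental line 6.92% to 11.05% of its reads came from the 5p arm, and in the knock-out it was 83.7% and 78.8% with Mock, 63.7% and 63.8% with dsGFPc and 60.4% and 69.3% with dsGFPd. The means were 9.20% ± 1.36 and 70.0% ± 9.37 (SD, n = 6; exact permutation test, adjusted p = 0.0131), and 19552 reads of the knock-out stand behind them. In shares, miR-25-3p fell from 25134 to 33250 RPM to 647 to 17721, whereas miR-25-5p had 1933 to 4129 RPM in the parental line and 81456 and 66034 in the Mock knock-out. With dsRNA the knock-out values of miR-25-5p were 986 to 12509, and its log2 difference over all libraries, 1.66 ± 0.83 (SE), did not pass the test. It was -3.74 with the scaling on other small RNAs (adjusted p = 0.000193), 2.77 with TMM factors and 3.29 with the deposited scaling, which passed, and so did 2.29 without the first dsGFPd library of the knock-out.

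Other hairpins followed. The 5p arm of miR-671 took 6.27% to 18.1% of reads in the parental line and 56.9% to 79.2% in the knock-out, and that of miR-221 took 4.59% to 20.4% and 27.6% to 72.3%. For miR-148a the parental range was 4.64% to 7.07%, and the knock-out libraries split, with 14.6% to 17.8% in both Mock and the second dsGFPd library and 59.2% to 65.6% in the others. The hairpins miR-454, miR-664a and miR-365b were already mostly 5p in the parental line, at 65.3%, 65.1% and 77.4% on average, and reached 98.1%, 98.2% and 100% in the knock-out, where miR-664a had no read in the first Mock library and its mean is over 5. In these 7 hairpins, miR-25 included, the libraries of the lines did not overlap. In miR-3613, miR-500a, miR-501, miR-132, miR-339, miR-10399 and miR-151a the means moved by 36.6 to 69.2 points but at least 1 library overlapped, and limma's call of miR-151a was lost without any of 5 single libraries. In 9 of the 14 the mean passed from under to over 50% 5p. Of these, miR-151a and miR-221 had knock-out means of only 50.1% and 50.7%, with libraries from 7.69% to 83.7% and 27.6% to 72.3%. The means of miR-3613 and miR-501 are over 5 knock-out libraries, and that of miR-10399 over 5 parental ones. Some library percentages rest on few reads, and the permutation test weighs all libraries alike. In the Mock knock-out libraries miR-365b had 8 and 6 reads, and miR-10399 had 2 in each, which gave 100% and 0% 5p.

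The shift of at least 10 points the other way was miR-181b, from 99.4% to 81.1% 5p on average. It came from the Mock knock-out libraries, at 34.8% and 60.2%, while those with dsRNA had 96.3% to 99.2%. The miR-93 hairpin had a like pattern of values, with 33.6% and 29.2% in Mock and 75.0% to 99.4% with dsRNA against 94.5% to 98.6% in the parental line, but did not pass either test.

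**Figure D4:**
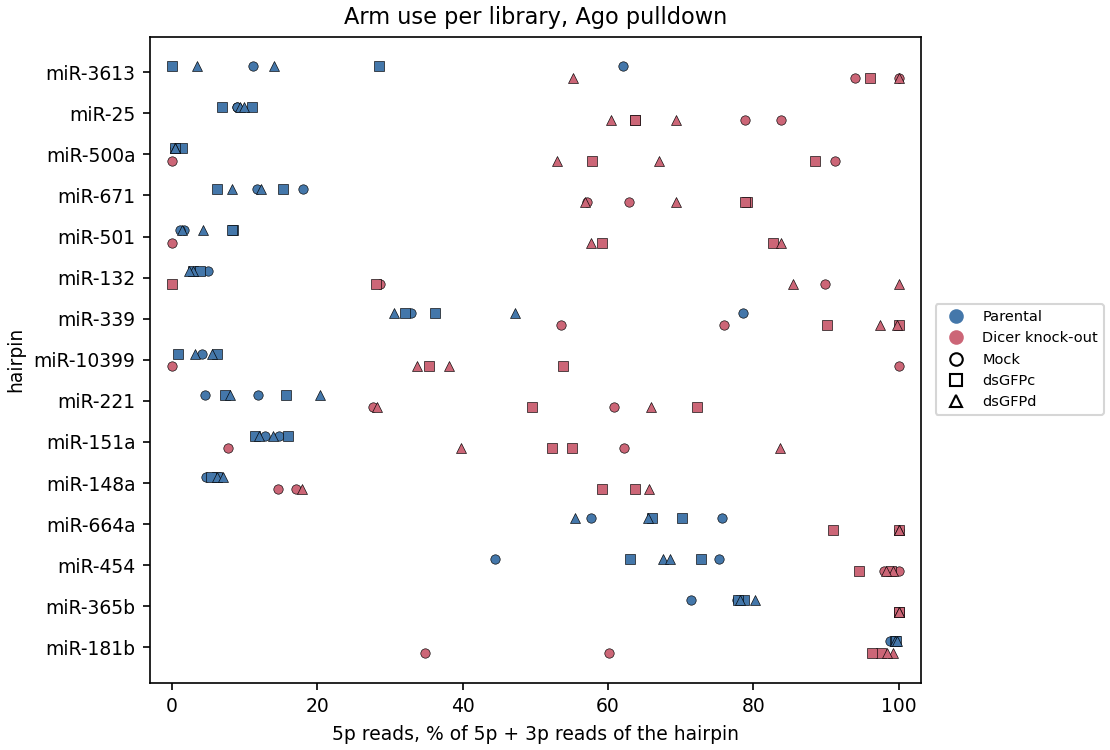
For the 15 hairpins whose percent of 5p reads differed by at least 10 points and passed the exact permutation test, each point is a library (parental blue, Dicer knock-out red, marker shape by transfection), with the percent of the hairpin's reads on the 5p arm on the x axis. In miR-25 and miR-671 all red points lie far to the right of the blue ones, and in miR-181b the 2 Mock knock-out libraries lie to the left.

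MiRNAs that skip a processing step were mostly rare in this pulldown. Of 20 mirtrons and other short-intron miRNAs 5 were tested, and none rose (13.3% of all names did). Of these, miR-877-3p fell, by 1.62 on the log2 scale, from 48.1 to 0.562 RPM on average. Its partner miR-877-5p had 693 ± 319 and 341 ± 226 RPM (SD, n = 6), a log2 difference of -1.09 that did not pass but did so without any of 4 single libraries. The list median was 1.006, against -1.07 over all names. The other tested names had higher mean shares in the knock-out but did not pass. Log2 differences were 1.393 for miR-1225-3p, 1.233 for miR-1225-5p and 1.006 for miR-1236-5p. Their parental means were under 20 RPM, so they passed the filter through the knock-out alone. Each had no read in some knock-out libraries. The list median is the value of miR-1236-5p, so it is not independent of that filter. Of the miR-320 family and miR-484, which skip Drosha but use Dicer, 4 were tested and 3 fell (47.8% of all names fell): miR-484 by 2.97, miR-320a-3p by 2.33 and miR-320c by 1.24. The Dicer-independent miR-451a had no read in the 6 knock-out libraries, where 3 reads would be 5.05 to 63.8 RPM, and in the parental line it had 4.35 and 0.340 RPM in 2 libraries and none in the other 4, so no difference was detectable at this depth.

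Of 14 miRNAs that mark other cell types, 4 were tested, and 3 had no read in any of the 12 libraries (miR-223-3p, miR-144-3p and miR-124-3p, of blood, red cells and neurons). The liver miRNA miR-122-5p rose, with 8.76 to 91.3 RPM in the parental line and 12.3 to 5197 in the knock-out (log2 difference 3.62 ± 0.93 SE, limma adjusted p = 0.00455; -0.81 with the scaling on other small RNAs). The endothelial miR-126-3p fell by 2.12 and the muscle miRNA miR-1-3p by 0.98 on the log2 scale, and the call of miR-1-3p was lost without any of 4 single libraries. Together the list took 0.00855% to 0.0511% of parental reads and 0.00432% to 0.643% of knock-out reads.

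The difference between lines depended on the transfection for 19 of 362 names (5.25%, limma F test of the interaction, adjusted p under 0.05): it was more positive with dsRNA for 8 and less positive for 11. The share of miR-6891-5p, whose hairpin lies within the span of HLA-B, was 96.0 and 0 RPM in the Mock knock-out and 1852 to 4406 with dsRNA, against 0.582 to 14.4 in the parental line. The share of miR-20a-5p, given above, rose with dsRNA in the knock-out in the same way. The shares of miR-1260b and miR-181b-3p went the other way: miR-181b-3p had 8173 and 2787 RPM in the Mock knock-out and 111 to 361 with dsRNA. The rare miR-1236-5p, a short-intron miRNA, was above its parental range of 0.170 to 7.55 RPM in the first Mock library (12 RPM, a single read) and in both dsGFPc libraries (236 and 150), and had no read in the other 3 knock-out libraries. By limma the differences with dsRNA minus those with Mock were 5.97 for miR-6891-5p, 4.26 for miR-20a-5p, 1.56 for miR-1236-5p, -3.91 for miR-181b-3p and -4.12 for miR-1260b on the log2 scale.

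This count was not stable. The quasi-likelihood test of edgeR called 0 names, with 73 at an unadjusted p under 0.05, and a pseudocount of 5 RPM left 3. Leaving out a library leaves its group with 1, which the fit assumes to vary like the rest. Leaving out a parental library gave 1 name without the first or the second Mock or the first dsGFPc library, 4 without the first dsGFPd library and 5 without the second dsGFPc or dsGFPd library. Leaving out a knock-out library gave 29 and 43 without the first and second Mock library, 8 without the second dsGFPc library and 52 without the second dsGFPd library. Tested with 2 against 2 libraries in the 12-library fit, the line contrast called 39 higher and 46 lower with Mock (10.8% and 12.7%), 36 and 153 with dsGFPc (9.94% and 42.3%), and 42 and 119 with dsGFPd (11.6% and 32.9%).

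The same comparison in total RNA had the same sign for the 12 largest rises and 12 largest falls of the pulldown. The line difference of miR-222-3p was -4.54 in total RNA and -4.67 in the pulldown, that of miR-21-5p 3.72 and 3.67, that of miR-148a-3p -3.78 and -3.95, and that of miR-25-3p -2.87 and -2.92 on the log2 scale. For other names the values lay further apart: 3.97 and 5.66 for miR-1260b, 1.40 and 3.41 for miR-671-5p, and -1.71 and -2.55 for let-7a-5p. None of these 7 passed the test of line by fraction. That test, over 24 libraries and 388 names, called 0 names as more positive in the pulldown and 21 as more negative (5.41%), with 55 at an unadjusted p under 0.05. Of the 21, 4 reached a mean share of 20 RPM in both fractions, and the others passed the filter through total RNA alone. In total RNA 20 of the 21 were higher in the knock-out, while 8 had no read in any of the 12 pulldown libraries, so their pulldown difference is 0 and the call restates the difference in total RNA. Among the 301 names with a mean share of at least 20 RPM in both fractions, a filter chosen after the values were seen, limma called 3 as more negative (0.997%) and 0 as more positive, with 23 at an unadjusted p under 0.05. These were miR-3609, miR-1246 and miR-3651. The edgeR test called 0 in either direction over the 388 names, with 37 at an unadjusted p under 0.05, and 0 over the 301, with 22.

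The mean share of miR-1246 in total RNA was 4.96 RPM in the parental line and 2331 in the knock-out, and in the pulldown it was 1.19 and 162. That of miR-3609 was 9.10 and 1275 in total RNA and 0.0940 and 71.3 in the pulldown. The differences in pulldown minus total RNA were -3.33 for miR-1246 and -3.49 for miR-3609. The other 4 of the 6 largest differences were miR-12136, miR-10397-5p, miR-1268b and miR-4521, with at most 7.67 RPM on average in the pulldown of either line, so these calls rest on total RNA, where miR-12136 went from 63.3 to 3173 RPM. The most abundant of the 21, miR-10395-5p, chosen after its values were seen, took 674 RPM of parental and 42550 of knock-out total RNA reads, and 3.46 and 196 RPM in the pulldown; it did not pass among the 301 names (limma adjusted p = 0.135).

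**Figure D5:**
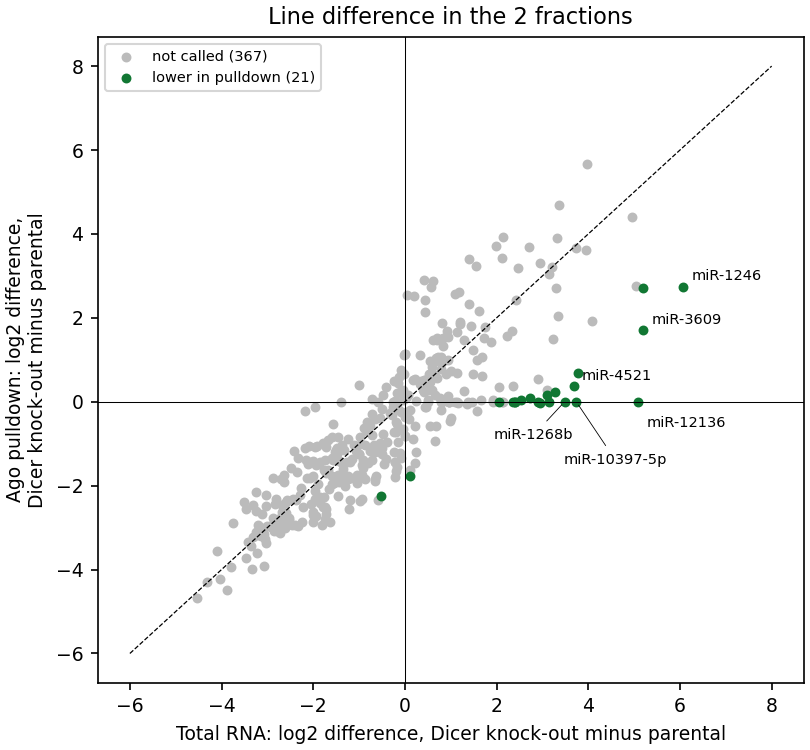
Each point is 1 of 388 miRNAs, with the log2 difference between Dicer knock-out and parental cells in total RNA on the x axis and in Ago pulldown on the y axis. Most points follow the dashed line of equal differences, and the 21 called names in green lie below it, many at a pulldown difference near 0; 8 of them have no pulldown read.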

How the data were processed

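Small RNA of the 12 Ago pulldown libraries, and of the matching 12 total RNA libraries, was analysed from the authors' deposited table of mature miRNAs. Reads were aligned with STAR to GRCh38, per the submitters' processing notes; versions, the counter, the annotation and the normalization are not given in the sources used here. Each deposited value is a normalised count, a signal rather than a raw count. Dividing a library's values by the smallest above 0 gave whole reads, within 0.01, for 100% of 34954 values. A read was worth 0.0884 to 0.192 normalised counts in parental and 4.86 to 24.5 in Dicer knock-out pulldown. Repeated loci of a name were reduced to the row with most reads, which left 2652 names of 2883 rows. The table for the third experiment is identical to this one and was not used.

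The members and lists were chosen with earlier results of these data known. Shares are RPM, reads per 1000000 recovered miRNA reads. Tests used limma 3.58.1 in R 4.3.3 (lmFit, eBayes with trend and robust) on log2(share + 20) for names with a mean share of at least 20, with line and transfection as terms, Benjamini-Hochberg adjustment and a threshold of 0.05; fold changes on this scale understate those of rare names. The interaction of line and transfection was tested with an F test, line by fraction over 24 libraries, and arm ratios as log2((5p + 0.5)/(3p + 0.5)) where both arms together had at least 20 reads in at least 4 libraries of each line. Single library values were tested by two-sided exact permutation. The scripts were tested on simulated data. Named miRNAs are up to 12 rises and 12 falls of largest size among those called with an above-median share and 1 sign in the 3 transfections, the 10 most abundant per line, miR-16-5p, miR-21-5p, miR-451a, list members, and the leading hairpins and fraction differences. Alternatives were edgeR 4.0.16, DESeq2 1.42.0, other scalings, filters and pseudocounts, single transfections, a replicate block and leaving out each library. Replicate libraries differed beyond counting error (chi-square per degree of freedom 30.8 to 1332). GC content and the first base were not compared, because matched sequences cover only 74.0% to 90.0% of reads, under 80% in 5 libraries.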

Additional observations from a re-analysis of the deposited data

Results flagged for a closer look

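The line difference depended on the transfection for 19 miRNAs by the limma interaction test. On the log2 scale, the difference with dsRNA minus that with Mock was 1.56 for miR-1236-5p, -4.12 for miR-1260b, -3.91 for miR-181b-3p, 4.26 for miR-20a-5p and 5.97 for miR-6891-5p. The share of reads on 5p-named arms changed by 21.2 percentage points more with dsRNA in the Dicer knock-out than in the parental line. The test of that change was chosen after the values were seen, and its p was not adjusted over the 3 library values. Among the names with a mean share of at least 20 RPM in both fractions, the line difference was lower in Ago pulldown than in total RNA for 3 miRNAs. The log2 difference in pulldown minus that in total RNA was -3.49 for miR-3609 and -3.33 for miR-1246. All these come from tests of the difference itself, and the calls on single miRNAs among them were not made by edgeR.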

How the results depend on the processing

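Depth limits the comparison: falls of names near 20 RPM cannot be measured in the Mock knock-out libraries. The count of 221 names called in either direction was 136 of 200 with a mean share of at least 100 RPM, 413 of 1321 without a filter, 18 with Mock libraries only and 79 with dsGFPd only, the last 2 with fewer libraries; leaving out each library gave 198 to 228. Higher and lower calls were 72 and 114 with quantile normalization, 71 and 85 with the deposited scaling, and 72 and 79 with edgeR and TMM factors. The count that depended on transfection was 3 with a pseudocount of 5 RPM, 0 with edgeR and 1 to 52 without single libraries. The count of 21 lower in pulldown was 0 with edgeR, 11 with a mean share of at least 100 RPM, 3 with at least 20 RPM in both fractions (0 by edgeR), and 17 to 29 without single libraries. For arm ratios, 43 hairpins became 28 with a pseudocount of 0.1 read and 28 by exact permutation of percent 5p, and 35 to 44 without single libraries. The 5p share differed by 26.8 to 31.5 points without single libraries. Names numbered 1000 or above differed by -0.37 to 0.16 points without single libraries and by 0.985 points (exact permutation p = 0.0260) without the most abundant miRNA of each line. The effective number differed by -19.0 to -13.0 without single libraries, and permutation within transfections took its difference of -15.4 past the threshold (p = 0.0370). The correlations of same-numbered libraries' deviations were 0.0706, 0.0914 and 0.132, so the replicate numbers were not taken as pairs; with a replicate block the counts were 224 names, 27 by transfection, 21 by fraction and 45 hairpins. Signs turned in 34 of 2788 values of single names, none by leaving out a library; the cause was not tested. With the deposited scaling and then DESeq2 they were 0.39 and 0.16 for let-7b-5p, 1.39 and 1.43 for miR-10b-5p, 1.51 and 1.54 for miR-16-5p, 0.17 and 0.24 for miR-196a-5p, 1.37 and 1.33 for miR-26a-5p and 0.27 and 0.27 for miR-423-3p. The deposited scaling alone gave 1.33 for miR-192-5p and DESeq2 alone 1.24 for miR-92a-1-5p. With Mock libraries only they were 0.35 for let-7i-5p, 0.43 for miR-423-3p and 2.64 for miR-92a-1-5p. The scaling on entries overlapping other small RNAs, whose joint share was higher in every knock-out library, gave -5.42 for miR-10a-5p, -0.81 for miR-122-5p, -3.51 for miR-143-3p, -2.23 for miR-181a-5p, -0.48 for miR-181b-3p, -3.27 for miR-182-5p, -4.29 for miR-183-5p, -4.40 for miR-20a-5p, -1.54 for miR-21-3p, -1.73 for miR-21-5p, -3.74 for miR-25-5p, -4.10 for miR-26b-5p, -4.00 for miR-423-5p, -0.20 for miR-450a-5p, -1.98 for miR-664a-5p, -0.17 for miR-664b-5p and -1.03 for miR-671-5p. The planned values on GC content and first base were not run.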
